A study of Danio rerio with 28 samples.

Results

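The comparison described here is of pabpc1a morphants (pabpc1a MO), zebrafish embryos given a morpholino to knock down pabpc1a, with wild type (WT) embryos at 6 hours post fertilisation (hpf). Each group had 2 poly(A)-selected RNA libraries. These 4 libraries, out of 28 in the series, were chosen by their titles. All embryos were of the AB strain, and whole embryos were used. The series also followed WT from 0 to 6 hpf, morphants of another gene, ybx1 (ybx1 MO), at 3, 4 and 6 hpf, pabpc1a MO at 4 hpf, and rRNA-depleted RNA of embryos given 0.2 ng of the RNA polymerase II inhibitor alpha-amanitin. The labels name no control morpholino, so the WT embryos are the reference and an effect of injection cannot be told apart from an effect of the knockdown. The labels do not say that the 2 libraries of a group came from separate clutches, so the p-values measure the spread between these libraries, which may be technical.

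Cytoplasmic poly(A)-binding protein coats the poly(A) tail of mRNAs, links it to the translation initiation machinery and takes part in recruiting the deadenylases that shorten it. The fish embryo starts development on mRNAs stored in the egg, and their tails set both their translation and their decay until the embryo's own genome is transcribed. At 6 hpf the embryo has begun gastrulation: BMP signalling patterns the ventral side, the dorsal organizer opposes it, and 2 extraembryonic tissues, the enveloping layer and the yolk syncytial layer, surround the blastoderm and the yolk. A morpholino can block translation without removing the mRNA it binds.

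The morphant libraries held 54750694 and 74561829 counted reads and the WT libraries 81550219 and 48204100. One gene without a symbol took 25.9% and 33.0% of the morphant counts and 35.6% and 46.1% of the WT counts. Values are given as CPM, the counts of a gene relative to the scaled size of its library. Between the 2 morphant libraries 638 genes were at least 2-fold apart and between the 2 WT libraries 627, against 9 to 2015 over all poly(A) pairs. The median absolute log2 difference was 0.22 between the morphant libraries, 0.27 between the WT libraries and 0.29 to 0.36 between a morphant and a WT library. The groups stood little further apart than the libraries within them. In whole embryos, fewer cells of a type and less RNA per cell cannot be told apart.

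The mRNA of pabpc1a itself did not differ detectably between the groups at 6 hpf. It stood at 1501 and 1391 CPM in the morphants and at 1352 and 1970 CPM in WT, so the groups overlapped. The log2 fold change was -0.20 (standard error 0.15; adjusted p = 0.46, quasi-likelihood test in edgeR, adjusted over all genes). Without WT replicate 2 its sign turned (0.09), and without WT replicate 1 it was -0.44 (adjusted p = 0.061). At 4 hpf pabpc1a mRNA was lower in the morphants, at 484 and 510 CPM against 864 and 627 CPM in WT (log2 fold change -0.58, adjusted p = 0.0074). The effect at 6 hpf minus that at 4 hpf, tested as an interaction, was not called for pabpc1a. A change of its effect between the hours was therefore not shown. The mRNA level does not check the morpholino label, since translation was not measured. Of the 7 tested genes for poly(A)-binding proteins and their partners, 1 was called higher (14.3%, against 4.55% of all genes) and none lower. It was PAIP2B, an inhibitor of poly(A)-binding protein in mammals, at 352 and 335 CPM against 284 and 212 CPM (log2 fold change 0.47, adjusted p = 0.041). Its call was lost without either morphant library or without WT replicate 2. The second cytoplasmic gene of this name, pabpc1b, stood at 17.8 and 19.6 CPM against 21.4 and 35.8 CPM and did not pass the test (log2 fold change -0.61, adjusted p = 0.061).

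**Figure D1:**
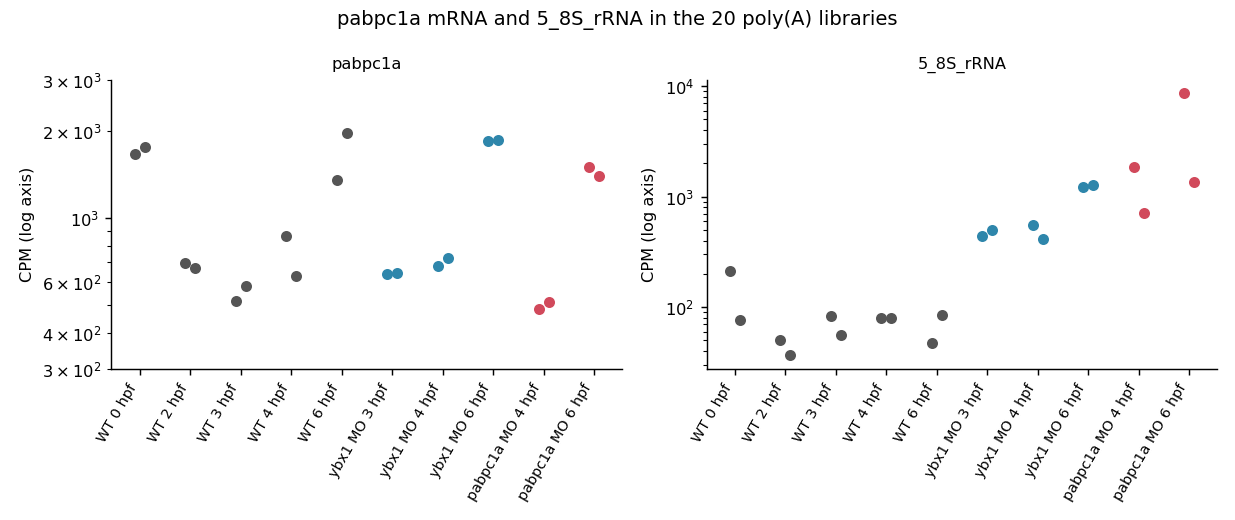
CPM of pabpc1a mRNA and of the gene 5_8S_rRNA (log axes) in the 20 poly(A) libraries, 1 point per library and 2 per group, with WT in grey, ybx1 MO in blue and pabpc1a MO in red. At 6 hpf pabpc1a lies at 1501 and 1391 CPM in the morphants, between the 2 WT libraries at 1352 and 1970 CPM, while 5_8S_rRNA lies above every WT library in every morphant library.

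Across the transcriptome, 2050 of 22377 genes tested (9.16%) passed an adjusted p of 0.05 at 6 hpf, 1018 of them higher (4.55%) and 1032 lower (4.61%) in the morphants. The change was at least 2-fold for 431 of the higher and 420 of the lower genes, and the median log2 fold change of all genes was -0.00. The count rests in part on the spread pooled over all 20 poly(A) libraries: a fit of the 4 libraries alone called 779 genes. It fell to 1078 without morphant replicate 2 and to 1291 without WT replicate 2. Of 118 called genes followed through up to 14 alternative analyses (10 for rx3 and hoxc3a), 24 kept their call in all of them, and none changed sign. The genes that follow with full statistics are mainly among those 24.

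Of the 12 genes with the largest decreases, 6 held their call in every alternative. The gene zgc:103482, for which RefSeq lists the synonym habp4, stood at 18.8 and 18.4 CPM in the morphants and at 75.4 and 66.1 CPM in WT. Its log2 fold change of -1.93 (standard error 0.10; adjusted p = 2.3e-08) had the smallest adjusted p of all genes tested, and the libraries of each group lay close together. The long noncoding RNA oip5-as1 fell from 160 and 166 CPM in WT to 48.6 and 42.5 CPM (log2 fold change -1.84, adjusted p = 0.0019). One of 2 genes with the symbol MAPK8 (ENSDARG00000009870), a Jun kinase, fell from 12.2 and 10.2 CPM to 2.62 and 3.08 CPM (log2 fold change -1.97, adjusted p = 3.4e-05). A gene entered the 12 only if called and with libraries that did not overlap between the groups, so that separation is no further result.

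The other 3 of these 6 were genes of the cytoskeleton, of lipid transport and of the crystallin family. The gene wipf3, of the WASP-interacting family that acts on actin, fell from 23.8 and 36.3 CPM to 8.51 and 8.45 CPM (log2 fold change -1.82, adjusted p = 0.00014). An apolipoprotein B gene, apobb.1, fell from 13.3 and 17.0 CPM to 2.79 and 1.79 CPM (log2 fold change -2.73, adjusted p = 0.00073). The crystallin-domain gene crybg1b fell from 32.7 and 47.3 CPM to 10.7 and 8.15 CPM (log2 fold change -2.09, adjusted p = 0.0021). In these 3 too, separate libraries were a condition of the choice. The other genes of the lowest 12 were DLX3, noxo1a, TEAD3 (ENSDARG00000074321, 1 of 2 genes of that symbol), tuft1a, ssuh2rs1 and si:ch73-239g21.2, with log2 fold changes from -3.08 to -1.78. The calls of these 6 were lost when 1 or more of the libraries was left out, with adjusted p up to 0.16, and all 6 were lost without morphant replicate 2.

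Among the largest increases, 4 genes held their call in every alternative. ABHD8, an abhydrolase domain gene, rose from 0.272 and 1.13 CPM in WT to 11.8 and 10.5 CPM in the morphants (log2 fold change 4.06, standard error 0.64, adjusted p = 0.0011). The adhesion molecule gene vcam1b rose from 0.605 and 1.68 CPM to 11.5 and 15.4 CPM (log2 fold change 3.60, adjusted p = 0.00066). The transcription factor gene ebf3b, of the Ebf family, rose from 1.80 and 4.38 CPM to 19.2 and 17.98 CPM (log2 fold change 2.61, adjusted p = 0.0017). In these 3 genes the morphant libraries were close to each other and the WT level was low. The fourth was 1 of 2 genes named MAP7D2 (ENSDARG00000045316), of a microtubule-binding family, at 10.4 and 11.5 CPM against 1.74 and 2.06 CPM (log2 fold change 2.54, adjusted p = 0.0021).

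In the other 8 genes of the highest 12, morphant replicate 1 stood well above replicate 2. The gene named 5_8S_rRNA stood at 8656 and 1342 CPM in morphant replicates 1 and 2 and at 46.8 and 85.5 CPM in WT (log2 fold change 6.24, adjusted p = 0.0028). The small noncoding RNA genes rn7sl1, of the signal recognition particle, and rn7sk, of the 7SK particle that restrains transcription elongation, stood at 40.8 and 5.15 CPM and at 16.9 and 3.81 CPM in the morphants, against 2.72 and 1.60 CPM and 1.86 and 1.13 CPM in WT. Replicate 1 was thus several times higher than replicate 2 in each, although both lay above WT, as the choice of these genes required. The same order held for NRAP, zgc:173587, zgc:163061, si:ch211-113a14.28 and si:ch211-113a14.29. Leaving out morphant replicate 1 ended the calls of all of these but 5_8S_rRNA, and in the fit of the 4 libraries none of the 8 was called. The carry-over of untailed RNA into these libraries was not tested.

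**Figure D2:**
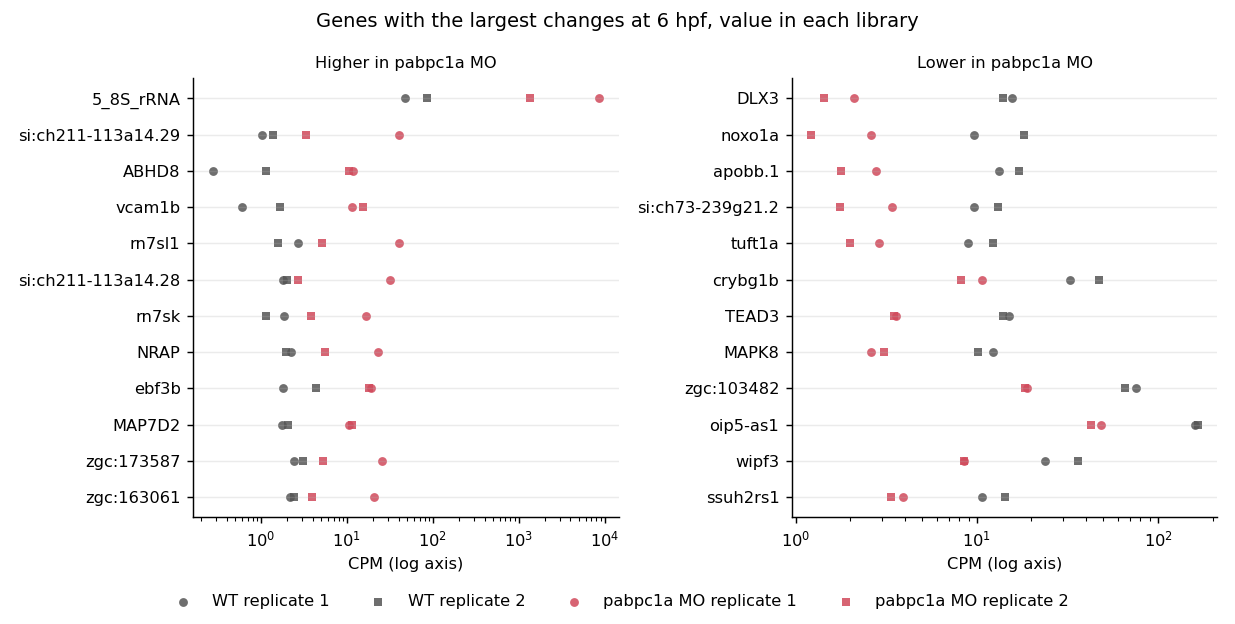
CPM (log axis) in each of the 4 libraries at 6 hpf for the 12 genes with the largest increases and the 12 with the largest decreases that were called, had a symbol, did not overlap between groups and reached 10 CPM in the higher group. Circles are replicate 1 and squares replicate 2, with WT in grey and pabpc1a MO in red, and the red circle stands well to the right of the red square in 8 genes of the left panel.

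Genes of BMP signalling and ventral fate were lower as a group. Of 29 tested members 5 fell (17.2%, against 4.61% of all genes) and none rose, and in 20 of the 29 both morphant libraries lay below both WT libraries, against 1 member with both above. The median log2 fold change of the members was -0.71, against -0.00 for all genes, where 5608 of 22377 had both morphant libraries below WT. The summed CPM of the list was 1647 and 1590 in the morphants and 2299 and 2106 in WT. Summed markers of the enveloping layer (12043 and 10206 CPM against 13610 and 11237 CPM) and of the yolk syncytial layer (3641 and 3161 CPM against 3749 and 3386 CPM) overlapped between the groups. Such sums weigh abundant genes most: by member, the yolk syncytial layer list had a median log2 fold change of -0.52 and the enveloping layer list of -0.26. The list was also lower in the ybx1 morphants at 6 hpf, set against the same WT libraries. There 9 of the 29 fell and 1 rose, with a median log2 fold change of -0.35, while 3492 of all 22377 genes fell. Between the 2 knockdowns, 1 member was higher and 3 were lower in the pabpc1a morphants, against 15.5% and 12.3% of all genes. The part of tissue make-up in the BMP result was not tested.

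Among the signal transducers, the receptor-activated Smad gene smad9 stood at 0.712 and 0.999 CPM in the morphants and at 7.69 and 9.02 CPM in WT. Its log2 fold change of -3.27 (standard error 0.44; adjusted p = 0.00026) held in every alternative. SMAD1, of the same class, stood at 4.13 and 2.28 CPM against 11.7 and 13.6 CPM and narrowly missed the threshold (log2 fold change -1.99, adjusted p = 0.052). SMAD5, the third of the class, was even between the groups (151 and 174 CPM against 179 and 141 CPM; log2 fold change 0.02). Of the inhibitory Smads, 1 of 2 SMAD6 genes (ENSDARG00000053209) fell from 21.9 and 29.7 CPM to 14.1 and 11.1 CPM (log2 fold change -1.03, adjusted p = 0.0088), and the pseudoreceptor gene BAMBI was lower without passing the test (log2 fold change -0.73).

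Downstream of the signal, the homeobox gene DLX3, of the ventral ectoderm, stood at 2.11 and 1.43 CPM in the morphants and at 15.7 and 14.0 CPM in WT (log2 fold change -3.08, adjusted p = 0.0046). The homeobox gene msx1b fell from 31.0 and 34.6 CPM to 12.8 and 8.42 CPM (log2 fold change -1.63, adjusted p = 0.0060). TP63, the epidermal p63 gene, fell from 5.32 and 5.71 CPM to 2.79 and 2.71 CPM (log2 fold change -1.004, adjusted p = 0.014; lost without 3 of the 4 libraries, each in turn). The libraries of the 2 groups did not overlap in any of the 3. That held for 2046 of the 2050 called genes, so it is no further result. None of the ligand genes passed the test: BMP4 stood at log2 -0.84, bmp7a at -0.56 and the more abundant of 2 BMP2 genes (ENSDARG00000041430) at -0.13. The other BMP2 gene (ENSDARG00000013409) had 13 counts in the morphants and 6 in WT (log2 1.08, standard error 1.32). GATA3 (-0.00) and the receptor gene BMPR1A (-0.06) were even.

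How many BMP genes passed depended on the spread assumed and on the libraries. The main fit called 5 members lower, among 1032 genes lower in all. The fit of the 4 libraries alone called 12 members lower, among 449 genes, and DESeq2 called 9, among 1384. Fewer members than in the main fit were called without morphant replicate 2 or without WT replicate 2. Only smad9 kept its call without morphant replicate 2; adjusted p there was 0.056 for DLX3 and 0.078 for msx1b.

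**Figure D3:**
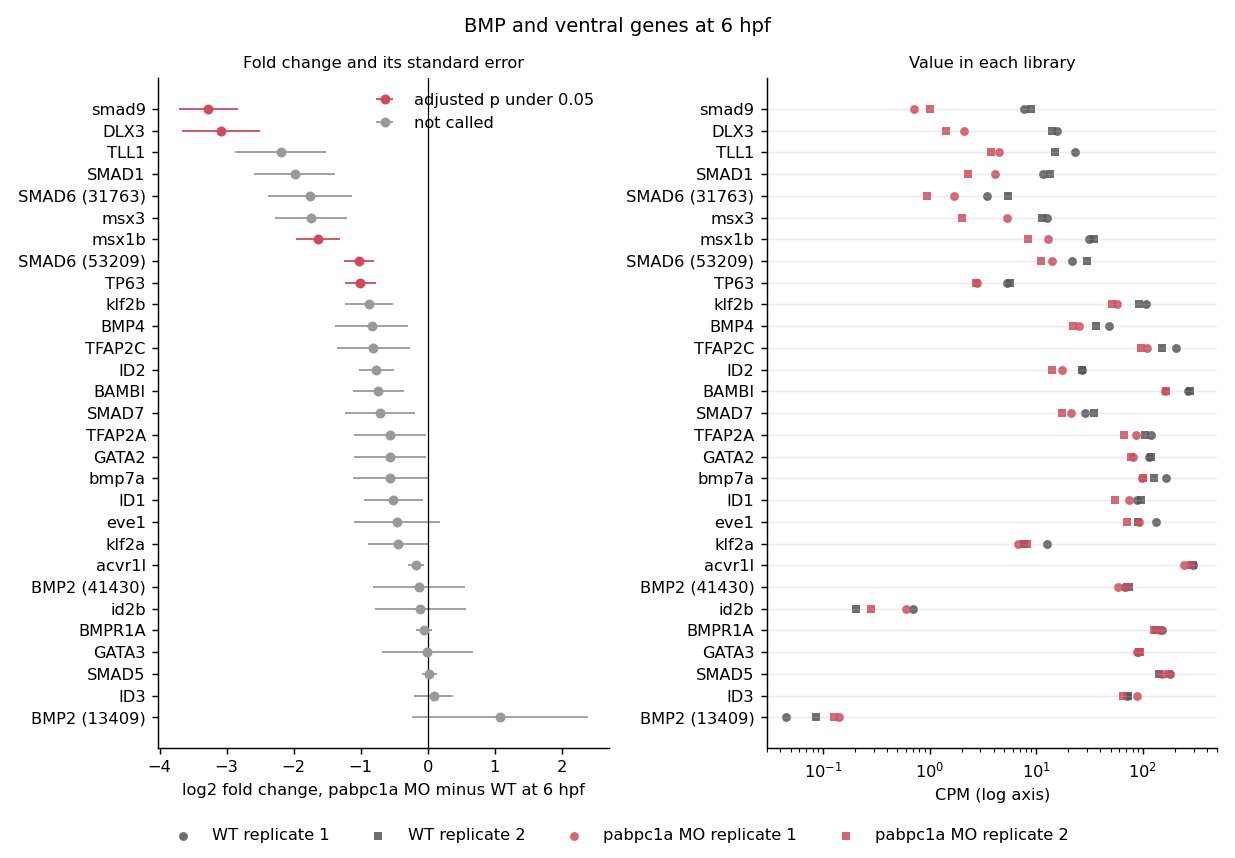
The 29 tested BMP and ventral genes at 6 hpf, with the log2 fold change (pabpc1a MO minus WT, bars of 1 standard error, red where the adjusted p was under 0.05) on the left and CPM in each library (log axis) on the right. A number in parentheses is the end of the gene ID where a symbol is shared by 2 genes. In 20 of the 29 both morphant libraries lie left of both WT libraries.

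Of 22 tested genes of posterior patterning, mostly hox genes, 3 fell (13.6%, against 4.61% of all genes) and none rose, with a median log2 fold change of -0.71. The earliest hindbrain hox gene, hoxb1b, stood at 1.57 and 0.745 CPM in the morphants and at 6.03 and 8.90 CPM in WT (log2 fold change -2.71, adjusted p = 0.0012), a call that held in every alternative. The caudal gene cdx4, of the posterior body, fell from 193 and 191 CPM to 118 and 84.5 CPM (log2 fold change -0.92, adjusted p = 0.032), and hoxc3a had 3 counts in the morphant libraries together and 38 in WT. The calls of cdx4 and hoxc3a were each lost without 3 of the 4 libraries, left out in turn. Of the 22 genes 20 stood under 1 CPM on average in both groups, so the median rests on low counts.

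In the other germ layers and axes the counts were small, though some shares were above those of all genes (4.61% lower and 4.55% higher). Of 32 Nodal and mesendoderm genes 3 fell (9.4%) and 1 rose (3.1%), with a median log2 fold change of -0.01. The type I activin receptor gene ACVR1B (ENSDARG00000052142, 1 of 2) fell from 65.0 and 65.4 CPM to 30.8 and 42.8 CPM (log2 fold change -0.82, adjusted p = 0.0020) and held in every alternative. The T-box gene tbx16l fell from 47.4 and 59.0 CPM to 20.7 and 14.0 CPM (log2 fold change -1.62, adjusted p = 0.021), a call lost without morphant replicate 2 or WT replicate 2. Of 22 dorsal organizer genes 2 rose (9.09%) and none fell, with a median of 0.12. The calls of these 2, SIX3 (ENSDARG00000058008) and lnx2b, were both lost without morphant replicate 2. That of SIX3 was also lost without morphant replicate 1 or WT replicate 1, and that of lnx2b without WT replicate 2. In the fit of the 4 libraries none of the 22 rose and 1 fell. Of 36 ectoderm and neural plate genes 2 rose (5.56%) and 3 fell (8.33%), with a median of 0.26. Those that fell were hoxb1b, counted above and held in every alternative, neurog1 (log2 fold change -2.095) and rx3 (-5.55). The calls of neurog1 and rx3 were lost without morphant replicate 2 or WT replicate 2, and that of rx3 also without morphant replicate 1. The log2 fold change of rx3 ran from -8.35 to -2.02 over its 10 alternatives. In that list IRX1 stood at 91.9 and 90.4 CPM in the morphants and at 26.9 and 33.6 CPM in WT (log2 fold change 1.59, adjusted p = 0.020), with groups far apart but a call lost when any 1 of the 4 libraries was left out.

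Of 39 tested Wnt pathway genes, 2 rose (5.13%) and 3 fell (7.69%), shares near those of all genes (4.55% and 4.61%), with a median log2 fold change of -0.19. The maternal beta-catenin gene ctnnb2 rose from 297 and 258 CPM to 406 and 457 CPM (log2 fold change 0.64, adjusted p = 0.0021). The gene with the symbol tcf3a fell from 62.9 and 53.9 CPM to 35.2 and 29.6 CPM (log2 fold change -0.85, adjusted p = 0.0020). It is counted among the 3 that fell but entered the list only by a synonym match to tcf7l1a. Whether it is that Wnt pathway gene was not checked. Both calls held in every alternative. The dishevelled genes split, with DVL3 higher (log2 fold change 0.45) and dvl2 lower (-0.45), both calls lost without WT replicate 1 and 1 further library each.

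Genes of the extraembryonic tissues were mostly lower, but few passed the test. Of 24 tested yolk syncytial layer genes 1 fell, apobb.1, described above (4.17%, against 4.61% of all genes). The median log2 fold change was -0.52, 4 members were positive, 11 had both morphant libraries below WT and 2 above. Of all 22377 genes, 11082 were positive, 5608 had both morphant libraries below WT and 5129 above. The fit of the 4 libraries called 4 members lower, and among all genes it called 449 lower and 330 higher. HNF4A, a regulator of apolipoprotein genes, stood at 49.7 and 47.0 CPM against 156 and 89.7 CPM and did not pass (log2 fold change -1.35, adjusted p = 0.17), and MTTP, which loads lipid onto apolipoprotein B, stood at 53.8 and 56.0 CPM against 185 and 88.0 CPM (log2 fold change -1.31, adjusted p = 0.39). Both groups were separate in these genes but the WT libraries were far apart. Of 32 enveloping layer genes only ELOVL7, a fatty acid elongase gene, fell (3.1%, against 4.61% of all genes), and the median was -0.26. The log2 fold change of ELOVL7 was -0.62 (adjusted p = 0.021), a call lost without morphant replicate 2 or WT replicate 1. Of those 32, 8 were positive, 12 had both morphant libraries below WT and 1 above, and the fit of the 4 libraries called 3 lower and 1 higher. Of 35 genes of epiboly, adhesion and the cytoskeleton 3 fell (8.57%, against 4.61% of all genes) and none rose. CTNND1, the p120 catenin that steadies cadherins, fell from 279 and 323 CPM to 144 and 143 CPM (log2 fold change -1.07, standard error 0.12, adjusted p = 4.1e-05) in every alternative, and the actin gene actb1 from 1685 and 1880 CPM to 1075 and 897 CPM (log2 fold change -0.85, adjusted p = 0.032; lost without any 1 of the 4 libraries).

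Among the genes that shorten poly(A) tails, 1 rose in every alternative. PAN2, the catalytic subunit of the deadenylase that poly(A)-binding protein recruits in yeast and mammals, stood at 82.1 and 84.6 CPM in the morphants and at 32.2 and 34.3 CPM in WT. Its log2 fold change of 1.33 (standard error 0.10; adjusted p = 2.9e-06) held in every alternative. CNOT3, a subunit of the CCR4-NOT deadenylase, fell from 121 and 154 CPM to 85.5 and 81.7 CPM (log2 fold change -0.72, adjusted p = 0.0018), while cnot3b rose by 0.40 on the log2 scale in a call lost in 9 alternatives. Of the 32 genes of deadenylation and decapping tested, 2 rose (6.25%, against 4.55% of all genes) and 1 fell (3.1%, against 4.61%). The other 29 were not called, and the median log2 fold change of the list was -0.07.

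The listed egg mRNAs were mostly higher, which did not hold for maternal mRNAs at large, described further on. Of 31 tested oocyte and egg genes 6 rose (19.4%, against 4.55% of all genes) and 1 fell, with a median log2 fold change of 0.29. The oogenesis-related gene org stood at 54.7 and 74.0 CPM in the morphants and at 17.3 and 10.6 CPM in WT (log2 fold change 2.20, standard error 0.21, adjusted p = 2.5e-05). DAZL, which encodes an RNA-binding protein of the germ line, rose from 5.61 and 5.02 CPM to 12.4 and 15.6 CPM (log2 fold change 1.39, adjusted p = 3.3e-05). Both held in every alternative. ZAR1L, of the zygote arrest family, rose from 4.60 and 4.00 CPM to 7.998 and 9.31 CPM (log2 fold change 1.01, adjusted p = 0.00082; lost in 2 alternatives). The genome activator nanog rose from 81.6 and 92.6 CPM to 115 and 176 CPM (log2 fold change 0.74, adjusted p = 0.0055), but not without morphant replicate 2. MOS (0.78) and CCNB1 (0.46) also rose, and TDRD1, of the piRNA pathway, fell (-0.65). Each of these 3 calls was lost without 3 of the 4 libraries, left out in turn, morphant replicate 2 and WT replicate 2 among them. Without morphant replicate 2 the number of members that rose was 3, and in the fit of the 4 libraries it was 2. Of 19 germ plasm genes, a list that shares DAZL, 3 rose (15.8%, against 4.55% of all genes) and none fell. In the fit of the 4 libraries 1 of the 19 rose.

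Of 51 tested genes of cell division, 12 rose (23.5%, against 4.55% of all genes) and 1 fell, the replication licensing inhibitor GMNN, and the median log2 fold change was 0.17. The survivin gene birc5b, of the chromosomal passenger complex, stood at 14.6 and 11.2 CPM against 3.55 and 3.31 CPM (log2 fold change 1.90, standard error 0.19, adjusted p = 2.1e-05). GINS2, of the replicative helicase, stood at 24.2 and 30.1 CPM against 13.5 and 8.38 CPM (log2 fold change 1.30, adjusted p = 0.00026). Both calls held in every alternative. The other 10, among them the mitotic cyclin genes CCNB1 and CCNB2, the kinase genes aurka, AURKB and bub1 and the origin gene ORC1, rose by 0.30 to 0.68 on the log2 scale. The count was 3 without morphant replicate 2 or WT replicate 2 and 2 in the fit of the 4 libraries.

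**Figure D4:**
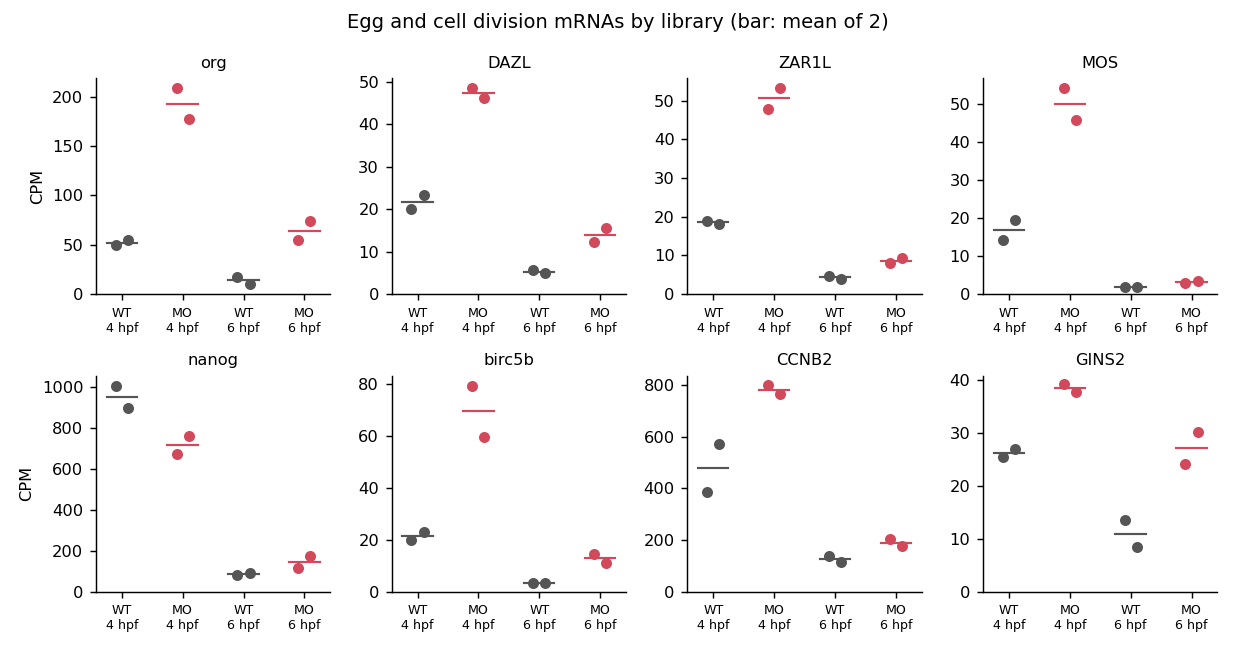
CPM of 8 called egg and cell division mRNAs in WT (grey) and pabpc1a MO (red) at 4 and 6 hpf, with 1 point per library and a bar at the mean of 2, each axis starting at 0. In org, DAZL, ZAR1L, MOS, birc5b, CCNB2 and GINS2 the morphant libraries lie above WT at both hours, while nanog lies below WT at 4 hpf and above it at 6 hpf.

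The translation machinery shifted by small amounts. Of 70 cytosolic ribosomal protein genes 61 had a positive log2 fold change, as did 11082 of all 22377 genes, and the median was 0.25. Of the 70, 8 rose (11.4%, against 4.55% of all genes) and 2 fell (2.86%, against 4.61%). RPS28 (log2 fold change 0.61), RPS12 (0.62) and RPS19 (0.56) were among those that rose. RPS15 fell from 278 and 230 CPM to 157 and 160 CPM (log2 fold change -0.68, adjusted p = 0.0082) and RPL29 from 283 and 230 CPM to 174 and 175 CPM (-0.55, adjusted p = 0.012). The count of members that rose was 0 without morphant replicate 1, without WT replicate 2 and in the fit of the 4 libraries. Of 52 translation factor genes 4 rose (7.69%, against 4.55% of all genes) and 2 fell (3.85%, against 4.61%). Those that rose were EIF4H, EIF4G2 (ENSDARG00000057167, 1 of 2), EIF4EBP3 and EIF3M, by 0.34 to 0.49, and those that fell EIF5 (-0.48) and eif4a1b (-0.55). None of the 4 that rose was called in the fit of the 4 libraries. None of the 13 mitochondrially encoded mRNAs was called by edgeR or DESeq2 (median -0.19), while 3 had an unadjusted p under 0.05 and 2 were called lower when either WT library was left out.

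The sterol regulator srebf2 rose from 35.4 and 45.0 CPM to 92.9 and 103 CPM (log2 fold change 1.29, standard error 0.13, adjusted p = 2.5e-05). The histone variant gene H2AZ2 fell from 401 and 306 CPM to 196 and 189 CPM (log2 fold change -0.88, adjusted p = 0.00063), and h3f3d, for the replacement histone H3.3, rose from 810 and 675 CPM to 1269 and 1091 CPM (log2 fold change 0.67, adjusted p = 0.0015). All 3 held in every alternative. Of the 20 histone genes tested 18 had a positive log2 fold change, as did 11082 of all 22377 genes, and the median was 0.52. In the main fit only h3f3d was called higher (5%, against 4.55% of all genes). DESeq2 called 3 higher and the fit of the 4 libraries 4.

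The difference between morphants and WT was smaller at 6 than at 4 hpf. At 4 hpf 7683 genes (34.3%) were called, 3018 higher (13.5%) and 4665 lower (20.8%). Of the calls at 6 hpf, 583 were also made at 4 hpf in the same direction, which is 28.4% of the calls at 6 hpf and 7.59% of those at 4 hpf, and 216 were made in the opposite direction. The 2 comparisons share no library but are fitted with 1 estimate of the spread. The change of the effect between the hours, tested as an interaction, was called for 5109 genes (22.8%), 3158 of them with a higher log2 fold change at 6 hpf (14.1%) and 1951 with a lower one (8.72%). The 2 WT libraries at 4 hpf had 2015 genes at least 2-fold apart, the most of any pair, and the count was 7669 without WT replicate 2 of 4 hpf, 3014 without morphant replicate 1 of 4 hpf and 1340 in a fit of the 4 groups alone.

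Genes that depend on new transcription made up 1869 of those 3158, and 4200 of the 22377 genes tested. The class was drawn from the rRNA-depleted libraries, as genes called with a fold of 2 or more when WT was set against alpha-amanitin at 4 hpf. Of its 4200 tested members 2570 fell and 53 rose in the morphants at 4 hpf, with a median log2 fold change of -2.36. At 6 hpf 92 fell (2.19%) and 80 rose (1.90%), shares below those of all genes in the main fit, and the median was -0.06. Members were thus 92 of the 1032 genes that fell and 80 of the 1018 that rose. In the fit of the 4 libraries alone they were 139 of 449 and 97 of 330, so the low shares depended on the spread assumed. The interaction was lower for 35 members. Maternal mRNAs, taken as those of at least 1 CPM in alpha-amanitin at 2 hpf that had fallen 2-fold or more by 6 hpf, had medians nearer 0 at both hours. The median log2 fold change of 4252 genes was 0.31 at 4 hpf and 0.03 at 6 hpf, where 218 rose (5.13%) and 194 fell (4.56%). Maternal mRNAs that stayed level in alpha-amanitin had a median of -0.01 at 6 hpf. Of these 3907, 226 rose (5.78%) and 282 fell (7.22%), above the shares of all genes (4.55% and 4.61%) in the main fit. In the fit of the 4 libraries alone they were 50 of the 330 genes that rose and 83 of the 449 that fell.

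Several gene lists were far below 0 at 4 hpf and nearer to it at 6 hpf. Of all genes, 20.8% were called lower at 4 hpf and 4.61% at 6 hpf. The interaction was called higher for 14.1% of all genes and lower for 8.72%. Early zygotic regulators had a median log2 fold change of -2.57 at 4 hpf, with 20 of 26 lower, and of 0.16 at 6 hpf, with 2 lower. Enveloping layer genes went from -4.66 to -0.26, and the interaction was called higher for 18 of 32. Yolk syncytial layer genes went from -3.42 to -0.52, with the interaction higher for 9 of 24. BMP and ventral genes went from -2.48 to -0.71, with the interaction higher for 9 of 29 and lower for 4. Lists of egg mRNAs (0.50 and 0.29) and of cell division (0.29 and 0.17) were above 0 at both hours. Others went another way: posterior patterning genes went from -0.07 to -0.71 and endoplasmic reticulum stress genes from 0.12 to -0.12, and mitochondrially encoded mRNAs were at -0.19 at both hours.

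**Figure D5:**
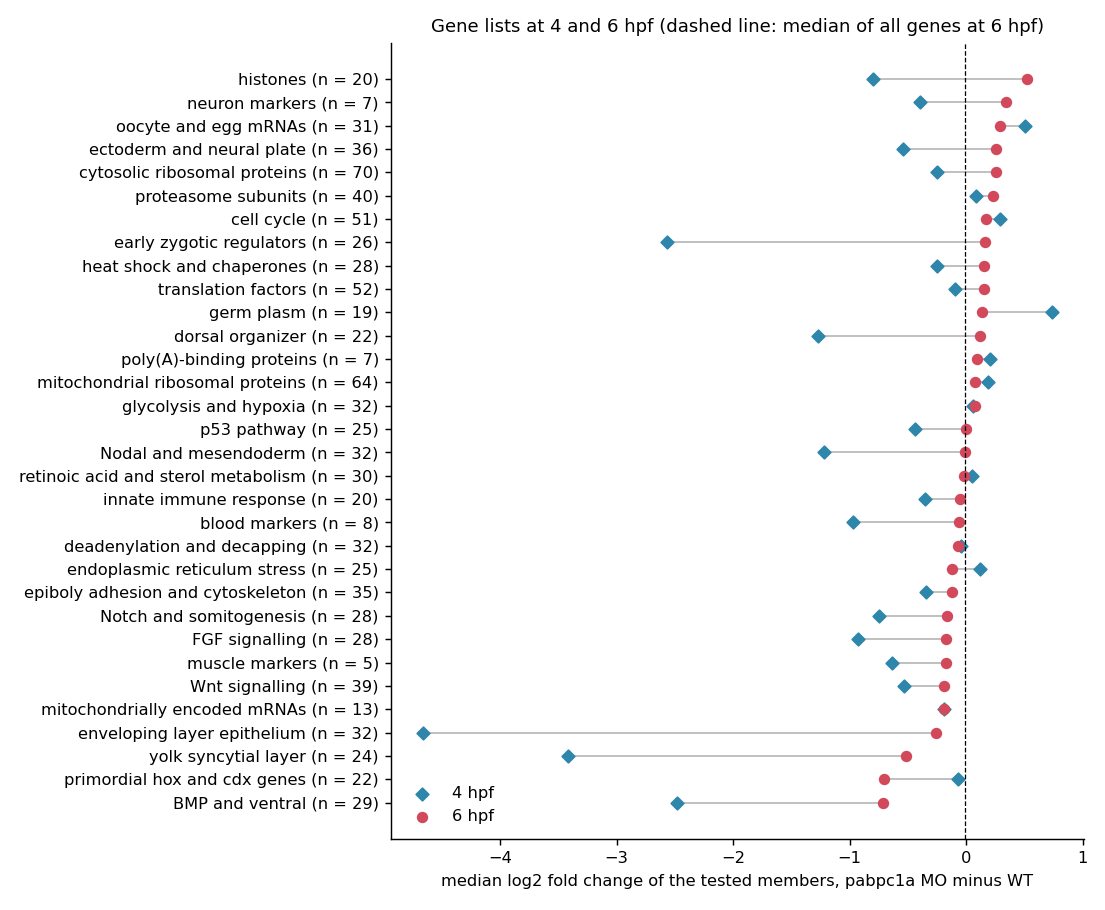
Median log2 fold change (pabpc1a MO minus WT) of the tested members of each gene list at 4 hpf (blue diamonds) and 6 hpf (red circles), ordered by the value at 6 hpf, with the number of tested members in parentheses. Enveloping layer, yolk syncytial layer, early zygotic and BMP genes lie far left at 4 hpf (-4.66, -3.42, -2.57 and -2.48) and between -0.71 and 0.16 at 6 hpf.

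Set against the ybx1 morphants of the same hour, which were compared directly, 6220 genes (27.8%) differed, 3462 higher (15.5%) and 2758 lower (12.3%) in the pabpc1a morphants. The count was 3488 and 3565 when 1 or the other ybx1 MO library was left out. The 2 ybx1 MO libraries were close to each other, with 27 genes at least 2-fold apart. Apolipoprotein genes went both ways. Levels of apoa1a were 18.96 and 10.5 CPM in the pabpc1a morphants, 0.990 and 1.11 CPM in the ybx1 morphants and 21.5 and 33.6 CPM in WT (log2 fold change between the morphants 3.81, adjusted p = 3.2e-06). APOB stood at 0.996 and 0.365 CPM in the pabpc1a morphants, 83.3 and 78.1 CPM in the ybx1 morphants and 3.70 and 1.89 CPM in WT (log2 fold change between the morphants -6.97, adjusted p = 6.4e-05).

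Of the 2050 genes called against WT, 1131 (55.2%, against 27.8% of all genes) also differed between the morphants, in tests that share the pabpc1a MO libraries. Some of the genes named above are given here for both knockdowns. Both were set beside the same WT libraries, so the 2 fold changes are not independent. The gene zgc:103482 stood at 54.7 and 52.97 CPM in the ybx1 morphants, nearer to WT, and differed between the morphants by -1.53 on the log2 scale (adjusted p = 4.6e-08). MAPK8 (ENSDARG00000009870) stood at 19.5 and 18.2 CPM there, above WT, and differed by -2.72 (adjusted p = 2.8e-07). The survivin gene birc5b went opposite ways, at 1.05 and 0.819 CPM in the ybx1 morphants, below WT, and differed by 3.77 (adjusted p = 1.4e-08). By contrast apobb.1 was lower still in the ybx1 morphants, at 0.110 and 0.182 CPM (log2 difference 3.97, adjusted p = 2.8e-05). For msx1b the ybx1 morphants stood at 7.48 and 5.66 CPM and the difference between the morphants did not pass the test (log2 0.68, adjusted p = 0.14), and for crybg1b they stood at 9.52 and 8.55 CPM (log2 difference 0.06, standard error 0.36).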

How the data were processed

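The authors deposited raw read counts for each Ensembl gene ID, made with TopHat2 2.1.1 and HTSeq 0.6.0 per the submitters' processing notes. Neither a genome build nor an annotation is given in the sources used here. No positions or sequences are reported. Of 33737 gene IDs in the files, 21939 were matched to a symbol, spelled as in the reference table.

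All 20 poly(A) libraries were fitted together in R 4.3.3 with edgeR 4.0.16 (filterByExpr, TMM scaling, robust quasi-likelihood test, 10 residual degrees of freedom). Benjamini-Hochberg adjustment ran over 22377 genes, with a threshold of 0.05. CPM use TMM-scaled library sizes. Classes came from the 8 rRNA-depleted libraries, fitted apart. The tests were tried on simulated data. Of 971 symbols listed for 32 gene lists and patterns, 585 matched by symbol and 115 by synonym. The members and lists were chosen with earlier results of these data known. Named genes are the 12 highest and 12 lowest called genes (symbol, separate libraries, 10 CPM or more in the group with more, over 3 counts per group), 5 each way for the interaction and for ybx1 MO, and list members. Which list members are printed was decided with their values in view. Alternatives were DESeq2 1.42.0, median-of-ratios scaling, no filter, a replicate block, a non-robust fit, omission of the most abundant gene, only the groups compared, and each library left out. Replicate numbers are shared between groups by number only, so no pairing was assumed. The result of 1 gene list is not reported here.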

Additional observations from a re-analysis of the deposited data

Results flagged for a closer look

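The effect of pabpc1a MO at 6 hpf minus that at 4 hpf, tested as an interaction in edgeR's quasi-likelihood fit, was most different for 10 genes, 5 in each direction. It was 8.93 on the log2 scale for B3GNT5 (ENSDARG00000018971), a glycosyltransferase gene, 8.89 for gna15.1, a G protein alpha subunit gene, 8.80 for the keratin gene krt92, 8.48 for CRABP2 (ENSDARG00000030449), a retinoic acid-binding protein gene, and 8.29 for the calpain gene CAPN9. All 5 were near 0 CPM in the morphants at 4 hpf and none was called at 6 hpf; krt92, for example, stood at 0.0700 and 0.0321 CPM against 44.8 and 7.10 CPM in WT at 4 hpf, and at 351 and 327 CPM against 429 and 331 CPM at 6 hpf. The 2 WT libraries at 4 hpf were several-fold apart in these genes, and the calls held in every alternative run.

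The effect went the other way for si:ch211-246m6.5 (-4.32), msx1b (-3.52), noxo1a (-3.16), scinlb (-3.09) and crybg1a (-3.01). The homeobox gene msx1b was higher than WT in the morphants at 4 hpf, at 7.33 and 6.61 CPM against 1.06 and 2.68 CPM, and lower at 6 hpf. The calls of noxo1a and crybg1a were lost when single libraries were left out, and over all alternatives their adjusted p reached 0.64 and 0.12.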

How the results depend on the processing

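Of 2050 genes called at 6 hpf, 764 passed an adjusted p of 0.01, 851 were at least 2-fold changed and 779 were called in the fit of the 4 libraries, where 3604 passed an unadjusted p of 0.05. DESeq2 on those 4 libraries, chosen after seeing the data, called 1252. Leaving out 1 library gave 1078 to 2065 calls. For the interaction of the hours (5109) 2300 passed 0.01, 1340 were called with only the groups compared, and leaving out 1 library gave 3014 to 7669. Against ybx1 MO (6220) 3590 passed 0.01, 3190 were at least 2-fold apart, and leaving out 1 library gave 3488 to 4667. With only the groups compared, the count against ybx1 MO was higher, at 7157. The log2 fold change of pabpc1a mRNA ran from -0.44 to 0.0881 when 1 library was left out and turned positive (0.0881) without WT replicate 2. The cause of these shifts was not tested.

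DESeq2 on all libraries (2992), median-of-ratios scaling (2134), no filter (1768), the non-robust fit (1997) and omission of the most abundant gene (2042) stayed within 1.5 times the count, and the scalings moved the median of all genes by under 0.1. With the replicate block the counts were 1954, 4919 and 6115. The deviations of same-numbered morphant and WT libraries at 6 hpf correlated at -0.135 across 14798 genes, which are not independent. In the 4 libraries alone a replicate block gave 575 calls and the crossed numbering, added after seeing the data, 1611. Genes with a few counts in a group limit the fold changes of low genes, and protein length and promoter letters were not analysed here.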

Other observations

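Of 28 heat shock and chaperone genes 3 rose (10.7%, against 4.55% of all genes) at 6 hpf, all of the CCT chaperonin that folds actin and tubulin: CCT4 (304 and 268 CPM against 180 and 190 CPM; log2 fold change 0.63, adjusted p = 0.0097), CCT8 (0.47) and CCT7 (0.45). HSPA4 (ENSDARG00000018989) fell (-0.75), which is 3.57% of the list against 4.61% of all genes. The call of CCT4 was lost without morphant replicate 1, those of CCT8, CCT7 and HSPA4 without morphant replicate 2, and that of CCT7 also without WT replicate 2. Of 40 proteasome genes 2 rose, PSMD1 (0.42) and PSMB4 (0.40), and 3 fell, PSMD11 (-0.65), PSMB5 (-0.56) and PSMD14 (-0.51), shares near those of all genes, and none was called in the fit of the 4 libraries. Of 64 mitochondrial ribosomal protein genes 4 rose (6.25%, against 4.55% of all genes) and 1 fell (1.56%, against 4.61%), with a median of 0.08.

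Stress and signalling lists held few calls, though some shares were above those of all genes (4.55% higher and 4.61% lower). Of 25 p53 pathway genes 1 rose (4%) and none fell. That gene, SESN1, stood at 4.73 and 9.35 CPM against 3.16 and 2.09 CPM (log2 fold change 1.42, adjusted p = 0.014). Its call was lost without morphant replicate 2 or WT replicate 2. Of 25 endoplasmic reticulum stress genes 1 rose (4%) and 2 fell (8%). Of 28 FGF genes 2 fell (7.14%), both named ERF, and of 28 Notch and somite genes 1 fell (3.57%), notch2 (-0.85). Of 30 retinoic acid and sterol genes 2 rose (6.67%), srebf2 and FDPS, and of 32 glycolysis and hypoxia genes 1 rose (3.1%), hif1aa (1.73). Markers of later tissues had 1 call each way. SLC4A1 (ENSDARG00000012881) of 8 blood genes rose (12.5%), a call lost in 1 alternative, and neurog1 of 7 neuron genes fell (14.3%), a call lost in 5. None of 5 muscle genes was called by edgeR or DESeq2 or had an unadjusted p under 0.05.

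The gene 5_8S_rRNA stood at 36.4 to 210 CPM over the 10 WT poly(A) libraries and at 409 to 8656 CPM over the 10 morphant libraries of both knockdowns. The 2 ranges did not overlap at any hour.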
